A study of Mus musculus with 10 samples.

Results

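The 10 genes described here encode lipid transfer proteins and anchors of membrane contact sites. The genes were chosen by name, with earlier results of these data known. They are Vps13a, Vps13b, Vps13c, Vps13d, Esyt1, Esyt2, C2cd2l, Pdzd8, Vapa and Vapb, 10 of the 55536 mouse genes in the count tables, and all 10 were expressed well enough to be tested in every comparison. Cerebellar and cortical RNA of 5 C57BL/6J mice aged 1 year was sequenced, and each mouse gave both tissues. The 2 Snx14-KO mice (KO 1 and KO 2) were homozygous for a frameshift deletion made with CRISPR/Cas9 in Snx14, so the model rests on a single allele. As controls served 3 mice, of which controls 1 and 2 were Het, with 1 copy of the deletion, and control 3 was WT. The comparisons ask whether these genes differed between Snx14-KO and control tissue, and whether they differed between the regions themselves. The cerebellum loses Purkinje cells (PCs) in these KO mice, whereas the paper saw no neurodegeneration in the cortex.

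Membrane contact sites are places where the endoplasmic reticulum (ER) lies close to another organelle without fusing, and lipids cross the gap through proteins rather than vesicles. VPS13 proteins are long, bridge-like rods with a hydrophobic groove along which many lipids can slide at once, whereas the extended synaptotagmins, C2CD2L (TMEM24) and PDZD8 carry lipids in a shorter SMP domain. VAPA and VAPB are ER membrane proteins that bind short FFAT motifs in many of these partners and so hold them at the ER. SNX14 is itself an ER protein that has been placed at contacts with lipid droplets.

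The libraries held 16088310 to 22975355 gene counts. Levels are given as CPM (counts scaled to a fixed library size) with TMM factors over all 10 libraries, and levels of different genes are compared only as TPM, which also divides by exonic length. Snx14 was at 42.8, 39.9 and 73.2 CPM in the cerebella of controls 1 to 3 and at 15.5 and 17.4 CPM in those of KO 1 and KO 2. In cortex it was at 34.3, 34.9 and 50.8 CPM in controls and 14.8 and 16.1 CPM in KO mice, so the KO libraries were lowest in both tissues. The edgeR adjusted p of Snx14 was 0.0140 in cerebellum, 0.0976 without KO 1 and 0.0639 without KO 2, and 0.754 in cortex or 0.00207 without control 2. DESeq2 gave Snx14 an adjusted p of 0.000450 in cerebellum and 1.54e-06 in cortex. The tissue labels matched their markers, since 12 granule cell genes summed to 5178 to 6036 CPM in cerebellum and 1108 to 1601 CPM in cortex, and 9 cortical excitatory neuron genes to 203 to 257 CPM and 487 to 738 CPM.

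Control 2 stood apart from the other controls in a way that bears on the longest genes. Its levels were set against the mean of the other controls, for well-expressed genes only. The 380 genes with 15 kb or more of exonic sequence had a median log2 difference of -0.21 in its cortex and -0.12 in its cerebellum. The 1462 genes under 2 kb had medians of 0.24 and 0.13. The VPS13 genes hold between 16.3 and 24.8 kb of exonic sequence, and in the cortex of control 2 they lay lower than in the other controls by a log2 difference of -0.41 for Vps13a, -0.26 for Vps13b, -0.48 for Vps13c and -0.51 for Vps13d. The cortex of control 2 also had the highest sum of 13 striatal marker genes, 4587 CPM against 2067 and 1880 CPM in the other controls and 1172 and 623 CPM in KO mice. Its sum of 10 oligodendrocyte genes was the highest too, 9055 CPM against 4899 and 4990 CPM in the other controls. Its sums were the lowest for cortical excitatory genes (487 CPM against 669 and 686 CPM) and astrocyte genes (3818 CPM against 5127 and 4868 CPM). The called results, and others that move with this library, are given with and without it, and the part of transcript length or dissection in them was not tested.

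**Figure D1:**
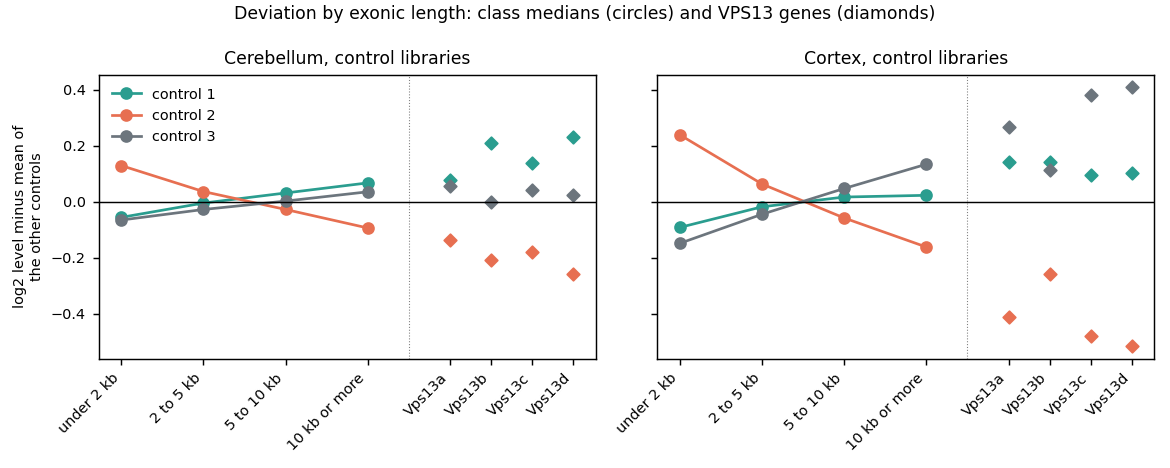
Median log2 difference of each control library from the mean of the other controls for genes grouped by exonic length (circles), and the same difference for the 4 VPS13 genes (diamonds), in cerebellum (left) and cortex (right). Control 2 falls from short to long genes in both tissues, and its VPS13 values reach -0.51 in cortex.

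Per exonic length, the VAP genes stood at the top and Esyt1 at the bottom in both tissues. In control cerebellum Vapa was at 120 ± 5.97 TPM (SD, n = 3) and Vapb at 76.8 ± 5.55 TPM, and the ranges of their libraries did not meet. Pdzd8, C2cd2l and Vps13c followed at 31.7 ± 3.98, 30.4 ± 1.88 and 28.1 ± 2.92 TPM, and neighbours in that order overlapped. Esyt2, Vps13d, Vps13a and Vps13b formed a second overlapping run at 19.5, 17.0, 14.5 and 13.4 TPM. Esyt1 was lowest at 9.72 ± 0.847 TPM, with no overlap with Vps13b above it. In control cortex the order began with Vapa at 107 ± 1.36 TPM, but C2cd2l at 75.8 ± 6.34 TPM overlapped Vapb at 66.5 ± 7.61 TPM. Pdzd8 stood alone at 32.9 ± 4.11 TPM. Vps13c, Vps13d, Esyt2, Vps13a and Vps13b ran from 15.2 to 9.37 TPM with neighbours overlapping, and Esyt1 was again lowest at 3.996 ± 0.675 TPM. The main change in order between the regions was that of C2cd2l, which shared the range of Pdzd8 in cerebellum and of Vapb in cortex.

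**Figure D2:**
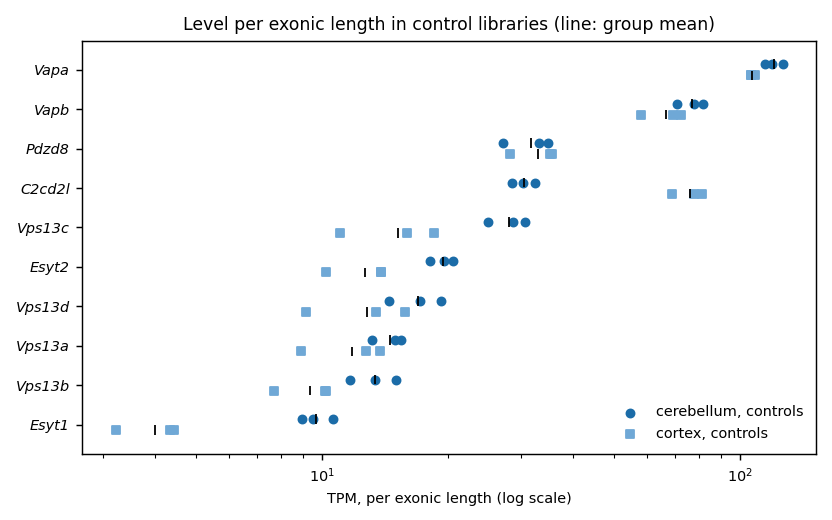
TPM of each gene on a log axis in the 3 control cerebella (circles) and the 3 control cortices (squares), with lines at the group means and genes ordered by the cerebellar mean. C2cd2l lies near 30.4 TPM in cerebellum and 75.8 TPM in cortex, while Pdzd8 lies near 31.7 and 32.9 TPM.

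Between the regions, C2cd2l was lower in control cerebellum than in control cortex, and Esyt1 and Vps13c were higher. A gene was called at an adjusted p under 0.05 in the quasi-likelihood F test of edgeR and an absolute log2 change over 0.5, which are the thresholds of the study. By that rule 3 of the 10 genes were called, against 40.5% of the 19416 genes tested, of which 19.1% were higher and 21.5% lower in cerebellum. At any size of change 6 of 10 had an adjusted p under 0.05, against 53.3% of all genes tested, and the libraries of the regions did not overlap for 6 of 10, against 61.7%. The fitted change lay above 0 for 6 of 10, against 51.2%. These shares are near the background, and the median log2 change of the 10 genes was 0.14, against 0.02 for all genes tested. In tissue RNA, fewer cells of a type and less RNA per cell cannot be told apart. Here p-values rest on the spread between mice within each region, and the main fit did not pair the tissues of a mouse.

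**Figure D3:**
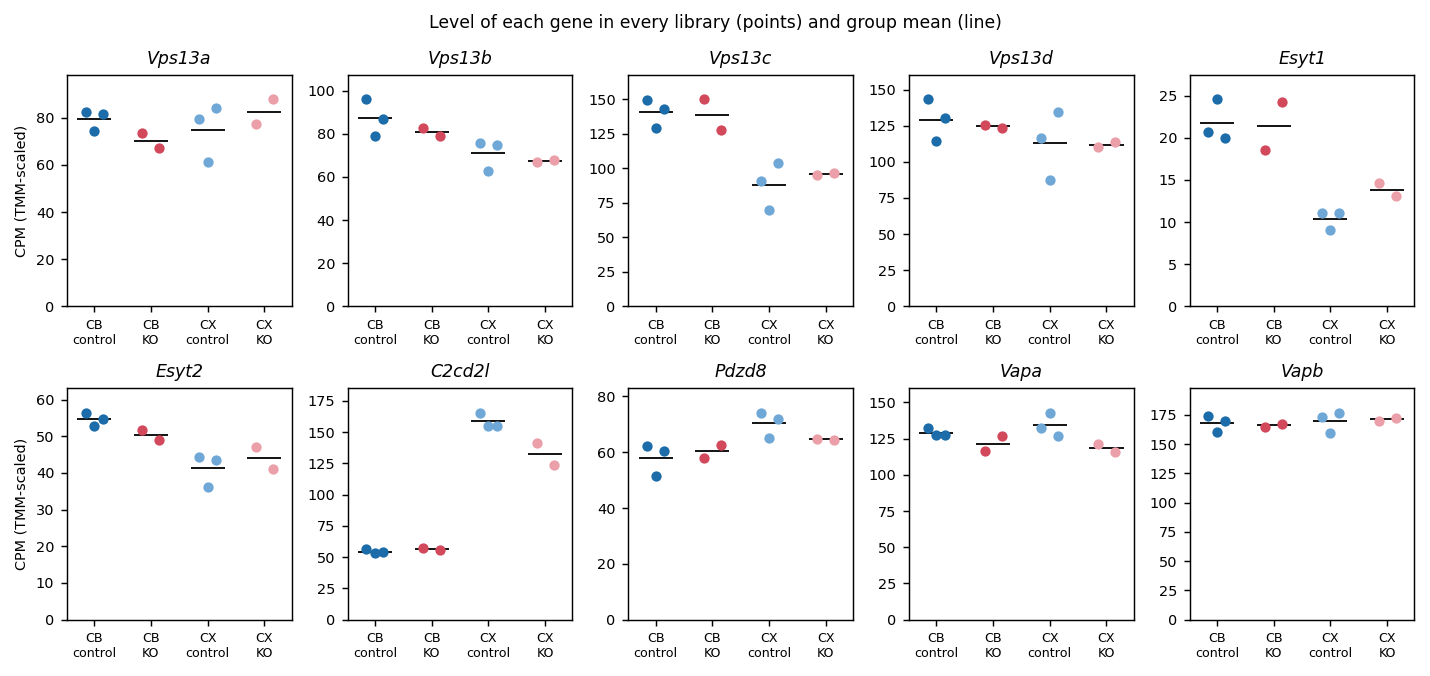
CPM of each gene in every library, by region and genotype class (CB, cerebellum; CX, cortex), with points for libraries and lines for group means, on axes that start at 0. C2cd2l separates the regions at 54.5 and 158 CPM in controls, whereas the Vapb libraries all lie between 159 and 177 CPM.

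Among the SMP-domain proteins, C2cd2l (ENSMUSG00000032120.11, chromosome 9 from 44309237 to 44320285, minus strand, GRCm38) encodes an ER protein that transfers phosphatidylinositol at contacts with the plasma membrane. It was at 56.4, 52.9 and 54.1 CPM in the cerebella of controls 1 to 3 and at 165, 155 and 155 CPM in their cortices. The regions were far apart and each was tight, with means of 54.5 ± 1.78 and 158 ± 6.06 CPM (SD, n = 3). The log2 change was -1.54 (SE 0.0718, edgeR adjusted p 4.99e-07), a level in cerebellum 0.343 times that in cortex, with a 95% interval of 0.306 to 0.384. Without control 2 it was -1.56. Pdzd8 (ENSMUSG00000074746.3, chromosome 19 from 59297178 to 59345780, minus strand), which tethers the ER to late endosomes and mitochondria, was at 62.2, 51.6 and 60.5 CPM in cerebellum and 74.2, 65.0 and 72.0 CPM in cortex. Every cortex was above every cerebellum, but the log2 change of -0.28 (SE 0.0957, edgeR adjusted p 0.0353) was under the size threshold. The ratio of C2cd2l to Pdzd8 in TPM was 0.966 ± 0.0738 in control cerebellum and 2.31 ± 0.118 in control cortex (SD, n = 3), a description without a test of its own.

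Esyt1 and Esyt2 encode extended synaptotagmins, which tether the ER to the plasma membrane and move glycerolipids between them. Esyt1 (ENSMUSG00000025366.8, chromosome 10 from 128509965 to 128525871, minus strand) was at 20.7, 24.5 and 19.9 CPM in control cerebella and 11.02, 9.01 and 11.04 CPM in control cortices. The regions did not overlap, and the log2 change was 1.07 (SE 0.133, edgeR adjusted p 0.000182), or 0.86 without control 2. Esyt2 (ENSMUSG00000021171.8, chromosome 12 from 116281196 to 116391050, plus strand) was at 56.4, 52.7 and 54.7 CPM in cerebellum and 44.4, 36.1 and 43.5 CPM in cortex. It too was higher in every cerebellum, by a log2 change of 0.40 (SE 0.0965, edgeR adjusted p 0.00758) that stayed under the size threshold and reached 0.51 when libraries were scaled by their totals alone. In TPM, Esyt2 exceeded Esyt1 by a ratio of 2.02 ± 0.270 in control cerebellum and 3.17 ± 0.0366 in control cortex (SD, n = 3).

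The counts of Esyt1 carry a limit, since 5.79% of its exonic bases overlap the antisense gene Gm29585 and strand was not used in counting. Gm29585 was at 8.95 to 10.3 CPM in control cerebella and 7.06 to 8.32 CPM in control cortices. With every count of Gm29585 taken off, a bound chosen after the values were seen, Esyt1 stood at 12.3 CPM in control cerebellum and 2.85 CPM in control cortex.

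Because the paralogs Esyt1 and Esyt2 both had higher levels in cerebellum, their RefSeq promoters (GRCm38.p6, 250 bases before to 50 after the annotated start, 5′ to 3′ on the strand of the gene) are shown, with the GC box letters GGGCGG, on either strand, in capitals.
Esyt1, chr10:128525810-128526109, minus strand: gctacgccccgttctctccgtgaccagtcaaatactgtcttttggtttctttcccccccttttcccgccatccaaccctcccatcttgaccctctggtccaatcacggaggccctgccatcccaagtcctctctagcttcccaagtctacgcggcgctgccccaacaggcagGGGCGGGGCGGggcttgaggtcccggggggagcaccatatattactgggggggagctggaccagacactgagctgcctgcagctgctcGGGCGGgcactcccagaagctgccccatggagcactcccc
Esyt2, chr12:116280972-116281271, plus strand: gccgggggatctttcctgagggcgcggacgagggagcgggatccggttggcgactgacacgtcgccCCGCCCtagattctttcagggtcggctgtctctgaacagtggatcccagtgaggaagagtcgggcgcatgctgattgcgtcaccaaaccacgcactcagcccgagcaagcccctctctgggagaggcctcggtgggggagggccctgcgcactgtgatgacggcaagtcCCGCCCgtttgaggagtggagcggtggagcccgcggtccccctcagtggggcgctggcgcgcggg
The Esyt1 window held 3 matches, counting overlapping ones, and 13 CpG dinucleotides, and the Esyt2 window held 2 matches and 28 CpG dinucleotides. Of 32851 promoters of this length, 35.7% held at least 1 GC box, and the median CpG count was 7. Promoters were matched for 7 of the 10 genes, and each of the 7 had a window with at least 1 GC box. A second window of Vps13d held 0. A match of letters describes the window and is not evidence of a bound site.

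The VPS13 genes encode bridge-like proteins that differ in the organelles they serve. Vps13c (ENSMUSG00000035284.10, chromosome 9 from 67840396 to 67995638, plus strand, 85 exons in the longest coding transcript), whose protein links the ER to late endosomes and lipid droplets, was at 150, 129 and 143 CPM in control cerebella and 91.0, 69.6 and 104 CPM in control cortices. Every cerebellum was above every cortex, and the log2 change was 0.67 (SE 0.139, edgeR adjusted p 0.00347). Without control 2, whose cortex was the lowest, it was 0.56 and still called. Over the alternative runs the highest edgeR adjusted p of Vps13c was 0.0498, barely under the threshold. Vps13b (ENSMUSG00000037646.10, chromosome 15 from 35371160 to 35931229, plus strand), which encodes a Golgi protein mutated in Cohen syndrome, was at 96.0, 79.0 and 87.0 CPM in cerebellum and 75.8, 62.9 and 74.7 CPM in cortex. Its libraries did not overlap, but the log2 change of 0.29 (SE 0.104, edgeR adjusted p 0.0413) was under the size threshold. DESeq2 gave Vps13b an adjusted p of 0.0640. Of its exonic bases, 2.91% overlap Cox6c or Gm48960, and how many Cox6c read pairs were also counted for Vps13b was not measured. For the smaller regional changes, all 3 controls had a cerebellar to cortical ratio on the same side of 1, and the edgeR adjusted p with the animal as a block was 0.00450 for Vps13b, 0.00145 for Esyt2 and 0.00526 for Pdzd8. Without the block and with a mouse left out, it was 0.173 for Vps13b, 0.0556 for Esyt2 and 0.140 for Pdzd8 without control 1, 0.131, 0.0501 and 0.149 without control 3, and 0.00541, 0.00223 and 0.00259 without control 2.

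Vps13a and Vps13d did not pass in either direction. Vps13a (ENSMUSG00000046230.11, chromosome 19 from 16615366 to 16780933, minus strand), mutated in chorea-acanthocytosis, ranged from 74.5 to 82.3 CPM in control cerebella and from 61.4 to 84.1 CPM in control cortices. Its log2 change was 0.08, with a 95% interval of -0.19 to 0.35, and -0.02 without control 2. Vps13d (ENSMUSG00000020220.16, chromosome 4 from 144972622 to 145195005, minus strand), which acts at mitochondria and peroxisomes and is mutated in a recessive ataxia, ranged from 114 to 143 CPM in cerebellum and from 87.6 to 134 CPM in cortex. The log2 change of Vps13d was 0.19, with a 95% interval of -0.16 to 0.54, which does not exclude a change of the size of the threshold. The ratio of Vps13c to Vps13a in TPM was 1.93 ± 0.0481 in control cerebellum and 1.28 ± 0.0609 in control cortex (SD, n = 3), and it varied less between mice than either gene did in cortex.

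The ER anchors did not pass between the regions. Vapa (ENSMUSG00000024091.9, chromosome 17 from 65578327 to 65613555, minus strand) was at 132, 127 and 127 CPM in control cerebella and 133, 143 and 127 CPM in control cortices. Vapb (ENSMUSG00000054455.4, chromosome 2 from 173737511 to 173784336, plus strand), mutated in a familial motor neuron disease, was at 174, 160 and 170 CPM in cerebellum and 173, 159 and 177 CPM in cortex. For both genes the libraries of the regions overlapped. The log2 changes were -0.06 for Vapa (95% interval -0.23 to 0.11) and -0.02 for Vapb (95% interval -0.19 to 0.16), and both signs flipped when libraries were scaled by totals alone, which moved the median of all genes from 0.02 to 0.13. The ratio of Vapa to Vapb in TPM was 1.57 ± 0.0477 in control cerebellum and 1.62 ± 0.190 in control cortex (SD, n = 3).

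**Figure D4:**
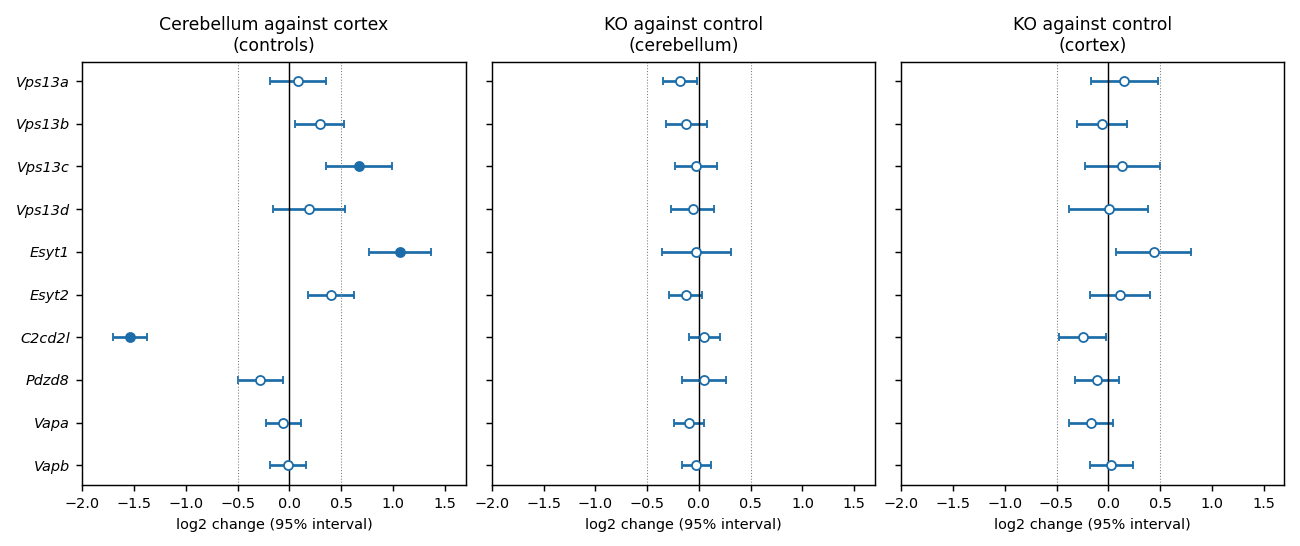
Log2 change and 95% interval of each gene in the 3 comparisons, with filled points for called genes and dotted lines at the size threshold of 0.5. The called genes are C2cd2l at -1.54, Esyt1 at 1.07 and Vps13c at 0.67 in the regional comparison, and both KO panels hold open points only.

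In the cerebellum of Snx14-KO mice, none of the 10 genes was called. The count was 0 of 10 with edgeR and 0 with DESeq2, against 1.55% of the 19447 genes tested. At an unadjusted p under 0.05 edgeR gave 1 gene, Vps13a, against 13.4% of all genes tested. For 3 of 10 genes, Vps13a, Esyt2 and Vapa, both KO libraries lay outside the range of the controls, against 30% of all genes. The fitted change lay above 0 for 2 of the 10, against 50.2% of all genes. The median log2 change was -0.0431, against 0.000899 for all genes, and the median absolute change was 0.0558, against 0.129. All genes tested were not matched to the 10 by expression level. The 95% intervals of all 10 genes lay between -0.36 and 0.31, inside the size threshold on both sides.

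Vps13a was at 82.3, 74.5 and 81.5 CPM in control cerebella and 73.3 and 67.3 CPM in KO cerebella. Both KO libraries were lower than every control, KO 1 by little. Its log2 change was -0.18 (SE 0.0726, 95% interval -0.35 to -0.02), with an unadjusted p of 0.0333 and an adjusted p of 0.314 by edgeR's quasi-likelihood test, and it was -0.23 without control 2. Esyt2 was at 51.6 and 48.9 CPM in KO cerebella, below its lowest control at 52.7 CPM, with a log2 change of -0.13 (SE 0.0698). Vapa was at 117 and 127 CPM in KO cerebella, and its higher KO library lay just under the controls at 127 CPM. Vps13b was at 82.6 and 78.9 CPM in KO mice, within reach of control 2 at 79.0 CPM, and its log2 change was -0.12 (SE 0.0848). The other 6 genes had log2 changes between -0.06 and 0.05. Esyt1 had the widest interval, with 18.6 and 24.2 CPM in the KO mice on either side of most controls. PC markers fell in the same libraries: 13 of 15 PC genes were called lower, their sum was 10970 to 12670 CPM in controls and 5860 and 6053 CPM in KO mice, and none was at 0 in every library. Sums were higher in KO cerebella for reactive astrocyte genes (785 to 827 CPM against 390 to 466 CPM), 12 microglial genes (336 to 338 against 221 to 252 CPM), astrocyte genes (6571 to 6869 against 5700 to 6191 CPM), endothelial genes (218 to 224 against 156 to 198 CPM) and striatal genes (520 to 551 against 456 to 498 CPM). Gene by gene, KO and control cerebella were apart for 8 of 10 reactive astrocyte, 9 of 12 microglial and 8 of 10 astrocyte genes. The counts were 3 of 8 for endothelial and 3 of 10 for tested striatal genes, against 30% of all genes. KO 1 stood apart in 8 choroid plexus genes, at 66.6 CPM against 1209 to 3435 CPM in the other cerebella. The part of PC loss, glial markers or dissection in the values of the 10 genes was not tested.

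In the cortex of Snx14-KO mice, none of the 10 genes was called either. edgeR called 0 of 10, against 0% of the 19202 genes tested, and DESeq2 called 45 genes of which 0 were among the 10. At an unadjusted p under 0.05 edgeR gave 2 of the 10, Esyt1 and C2cd2l, against 5.93% of all genes. The libraries did not overlap for 4 of 10, which were Esyt1, C2cd2l, Pdzd8 and Vapa, against 24.7% of all genes. The fitted change lay above 0 for 6 of 10, against 50.2%. The median absolute log2 change was 0.123, against 0.131 for all genes tested. Apart from Esyt1, the 95% intervals lay between -0.48 and 0.49, inside the size threshold.

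Esyt1 was at 11.02, 9.01 and 11.04 CPM in control cortices and 14.7 and 13.04 CPM in KO cortices. Both KO libraries were above all controls yet below every cerebellum. The log2 change was 0.44 (SE 0.156, 95% interval 0.07 to 0.80), with an unadjusted p of 0.0241 and an adjusted p of 0.796 by edgeR's quasi-likelihood test, and it was 0.35 without control 2. With the counts of Gm29585 taken off, the KO cortices stood at 8.01 and 4.17 CPM and the controls at 2.695, 1.87 and 3.99 CPM. The TPM ratio of Esyt2 to Esyt1 was 2.55 and 2.50 in KO cortices, below the control cortices at 3.20, 3.18 and 3.13. Several marker lists also separated KO from control cortices. Sums were higher in KO mice for 8 endothelial genes (216 to 250 CPM against 125 to 209 CPM), 10 astrocyte genes (5479 to 5781 against 3818 to 5127 CPM), 10 reactive astrocyte genes (278 to 289 against 206 to 254 CPM) and 9 cortical excitatory genes (704 to 738 against 487 to 686 CPM). Sums were lower for 13 striatal genes (623 to 1172 against 1880 to 4587 CPM) and the 15 genes of the PC list (1851 to 1872 against 2258 to 2579 CPM). The KO and control libraries were apart for 13 of 13 striatal genes, with a median log2 change of -1.75, and for 7 of 10 astrocyte genes. The counts were 3 of 8 for endothelial, 4 of 9 for cortical excitatory and 3 of 8 for tested reactive astrocyte genes. For tested genes of the PC list the count was 8 of 14, and over all genes the share was 24.7%. No listed gene was at 0 in every library, and the part of these shifts in the levels of Esyt1 and C2cd2l was not tested.

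C2cd2l was at 165, 155 and 155 CPM in control cortices and 141 and 123 CPM in KO cortices. Both KO libraries were below all controls and remained far above the cerebellar level. The log2 change was -0.25 (SE 0.0984, 95% interval -0.48 to -0.02), with an unadjusted p of 0.0377 and an adjusted p of 0.817 by edgeR's quasi-likelihood test. It was -0.26 without control 2. Vapa was at 121 and 116 CPM in KO cortices, under its lowest control at 127 CPM, and Pdzd8 at 64.8 and 64.4 CPM, under its lowest control at 65.0 CPM. The log2 changes of these genes were -0.17 (SE 0.0929) and -0.11 (SE 0.0917). Vapb stayed at 170 and 172 CPM, within its controls, and Esyt2 at 47.2 and 41.0 CPM lay on both sides of most of its controls.

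For the VPS13 genes in cortex the small changes were lower without control 2, and those of Vps13c and Vps13d changed sign. The sign of Vps13d also changed in other runs that kept control 2. Vps13c was at 95.1 and 96.5 CPM in KO cortices, among controls at 91.0, 69.6 and 104 CPM, and its log2 change was 0.14 with all controls and -0.01 without control 2. Vps13d was at 110 and 114 CPM in KO cortices, and its log2 change went from 0.0025 to -0.15. Vps13a went from 0.16 to 0.03, and Vps13b from -0.06 to -0.14. None of these values had an adjusted p under 0.05 with edgeR.

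An interaction term over all 10 libraries asked whether the KO effect differed by tissue, and it passed for 0 of the 10 genes with edgeR and 0 with DESeq2, against 0.102% of the 20614 genes tested. With the animal as a block, edgeR called 128 genes instead of 21, and again 0 of the 10. At an unadjusted p under 0.05 edgeR gave 1 gene, C2cd2l, against 8.28% of all genes. Within an animal, the ratio of cerebellar to cortical CPM of C2cd2l was 0.341, 0.342 and 0.348 for the 3 controls, whereas KO 1 had 0.408 and KO 2 had 0.455. The KO ratios were above those of all controls, and the controls were close to each other. The fitted difference was 0.32 on the log2 scale (SE 0.108), with an edgeR adjusted p of 0.382, or 0.236 with the animal block. Ratios of control and KO animals also did not overlap for Vps13a, Esyt2 and Pdzd8, so that 4 of 10 genes separated, against 27.7% of all genes. The fitted difference lay above 0 for 3 of 10, against 55%. Vps13a was at ratios of 1.04, 1.21 and 0.969 in controls and 0.947 and 0.767 in KO mice, a fitted difference of -0.32 (SE 0.173). Esyt1 had ratios of 1.88, 2.72 and 1.80 in controls and 1.27 and 1.86 in KO mice, which overlapped.

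**Figure D5:**
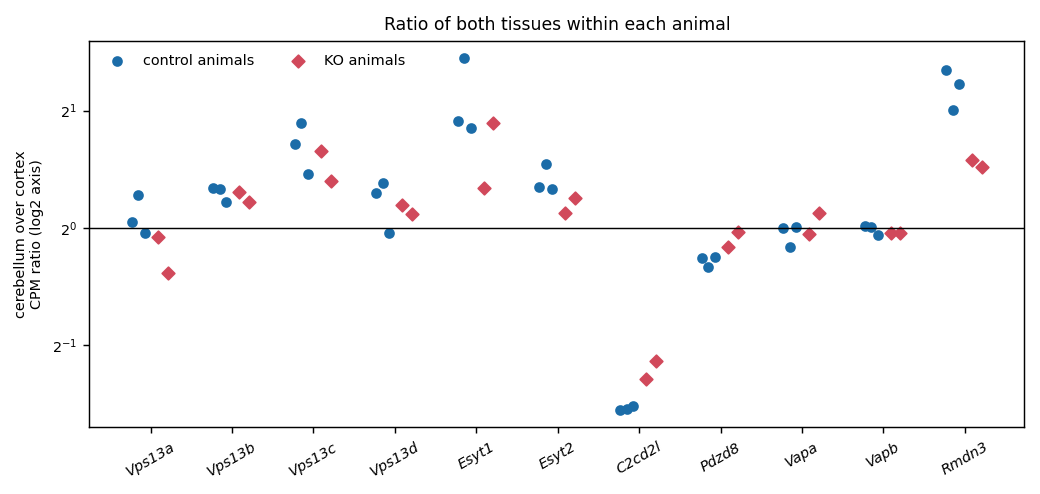
Ratio of cerebellar to cortical CPM within each animal, on a log2 axis, for the 10 genes and for Rmdn3, with circles for the 3 controls and diamonds for the 2 KO mice. The control ratios of C2cd2l lie between 0.341 and 0.348 under KO ratios of 0.408 and 0.455, and those of Rmdn3 fall from 2.01 or more to 1.49 or less.

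A list of 56 other genes of contact sites and lipid transfer gave the setting of the 10. In KO cerebellum 1 of 56 was called, against 1.55% of all genes, and this gene was Rmdn3, whose product PTPIP51 is a mitochondrial tether that binds VAPB. Rmdn3 was at 134, 127 and 132 CPM in control cerebella and 84.7 and 88.5 CPM in KO cerebella. The KO libraries were well below the controls, with a log2 change of -0.61 (SE 0.0602, edgeR adjusted p 0.00214), and the PC and glial marker sums given above shifted in the same libraries, whose part in it was not tested. In cortex Rmdn3 was at 52.9, 63.4 and 56.6 CPM in controls and 56.8 and 61.6 CPM in KO mice, and 0 of 56 genes were called there by edgeR and 0 by DESeq2, with 1 of 56 at an unadjusted p under 0.05. The interaction gave Rmdn3 a log2 difference of -0.64 (SE 0.119) with an edgeR adjusted p of 0.100. The animal block gave 0.0462, DESeq2 0.000624 and edgeR without control 2 gave 0.00287. At least 1 run with a replicate left out did not call Rmdn3, and its difference ranged from -0.76 to -0.56 over all runs. For the RNA of Vapa and Vapb, the 95% intervals of the log2 change in KO cerebellum were -0.24 to 0.05 and -0.17 to 0.12. Protein of these genes was not measured in these data.

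Between the regions 23 of the 56 were called, 11 higher and 12 lower in cerebellum, near the background of 40.5%. Of the 13 genes of the VAP family and its ER partners 5 were called. Rmdn3 was higher in cerebellum by 1.18 (SE 0.0850) and Sacm1l, a phosphatase that removes phosphate from phosphatidylinositol 4-phosphate at the ER, by 0.52 (SE 0.0761) on the log2 scale. Of the 12 oxysterol-binding protein genes 5 were called, among them Osbpl6 at 0.78 and Osbpl9 at 0.76 on the higher side and Osbpl8 at -0.83 on the lower. Xk, whose product is a scramblase partner of VPS13A, was higher by 1.57 (SE 0.0839), with 59.6 CPM in control cerebellum and 19.98 CPM in control cortex, while Vps13a itself did not pass. Gramd2 at -3.21, Pitpnc1, a phosphatidylinositol transfer protein gene, at -0.77 and the ER calcium sensor gene Stim2 at -0.72 were lower. Of the 6 other bridge-like genes 2 were called, both higher in cerebellum, against 19.1% of all genes called higher.

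Genes whose levels followed those of single members most closely were ranked by Pearson r of log2 CPM over the 10 libraries among 17431 genes, as a description without a test. The 10 libraries share 5 animals and fall into 2 tissues, which sets most of r for genes that differ between them. C2cd2l was followed most closely by Ncdn (r = 0.997), Actn1 (r = 0.996) and AC131756.1 (r = 0.996). Ncdn was at 342 CPM in control cerebellum, 1227 CPM in control cortex and 1029 CPM in KO cortex. Esyt1 was followed by Naaladl2, Sema6c and Trip6 (r = 0.977, 0.976 and 0.976), and Vps13a by Glp2r, Mblac2 and Dpp8 (r = 0.917, 0.916 and 0.909).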

How the data were processed

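Strand-specific mRNA libraries of 10 tissue samples were compared. Per the study's methods and the file headers, the authors aligned trimmed paired reads with STAR to GRCm38, and pairs over exons were counted with featureCounts (Subread 2.0.1), without strand and with pairs counted for each gene they overlapped. The deposited values are raw counts per gene, with the exonic length in another column. The 26345 entries without a mouse gene identifier (0.160 to 0.926% of counts) were left out. All 55536 gene identifiers matched GENCODE M21.

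Groups were taken from the labels. Counts were fitted with edgeR 4.0.16 in R 4.3.3 (filterByExpr with a count minimum of 10, TMM scaling, quasi-likelihood F test), each comparison on its own libraries and the interaction on all 10, with Benjamini-Hochberg adjustment over all genes tested. DESeq2 1.42.0, other scalings, no filter, blocks and leaving out each replicate were alternatives. Intervals are 95% intervals of the fit. The method was tested on simulated data. The members and gene lists were chosen with earlier results of these data known. Other genes named are, per comparison, at most 5 called list genes per direction with the smallest adjusted p and a mean of at least 1 CPM, and the 3 genes most like 3 members. A gene that this rule names is not reported here. Tissues of an animal were paired: deviations from group means correlated at 0.299, 0.479, 0.248, 0.366 and 0.366 between the tissues of the 5 animals. Libraries of a group differed beyond counting noise, with a chi-square of 4.12 to 28.5 per degree of freedom.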

Additional observations from a re-analysis of the deposited data

How the results depend on the processing

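No member was called in KO cerebellum, KO cortex or the interaction under any alternative run. C2cd2l, Esyt1 and Vps13c were called between regions under each of them, Vps13c with an edgeR adjusted p of up to 0.0498. Numbers of genes called over the whole table moved more. KO cerebellum gave 842 genes with no filter on low counts, 181 with the replicate block and 133 (without control 1) to 400 (without control 2) with 1 replicate left out. KO cortex gave 45 with DESeq2, 380 with no filter, 3 with the block and 0 to 98 with 1 replicate left out, the 98 without control 2. The interaction gave 221, 599, 128 and 0 to 198 in the same order, the 198 again without control 2, and 1 of the 56 listed genes (Rmdn3) with DESeq2, no filter or the block and 0 to 1 with a replicate left out. The block of the KO comparisons joins animals that share only a number (correlations 0.0708, 0.00902, 0.123 and 0.189) and leaves control 3 without a partner. The animal block changed no call of a member.

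The signs that turned belonged to changes that were not called. In KO cortex Vps13d was at -0.0004446 with DESeq2, -0.0001797 with RLE scaling and -0.01214 with all 10 libraries in one fit. Between regions Vapa was at 0.05026 and Vapb at 0.09469 with library totals only, and Vapb at 2.399e-05 with no filter. With 1 replicate left out, log2 changes in KO cerebellum ranged from -0.1475 to 0.07934 for Vps13c, -0.1403 to 0.0197 for Vps13d, -0.2385 to 0.1455 for Esyt1, -0.02889 to 0.1012 for Pdzd8 and -0.05657 to 0.0005524 for Vapb. In KO cortex they ranged from -0.007249 to 0.2676 for Vps13c, -0.1497 to 0.1431 for Vps13d, -0.005278 to 0.2132 for Esyt2, -0.0135 to 0.0562 for Vapb and -0.0142 to 0.1285 for Rmdn3. Between regions they ranged from -0.02295 to 0.1555 for Vps13a and -0.04971 to 0.01075 for Vapb, and in the interaction from -0.08169 to 0.008753 for Vps13b and -0.1786 to 0.01712 for Vps13d. The cause was not tested. Changes inside the intervals given in the report are not excluded.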
